A study of Homo sapiens with 6 samples.

Results

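The 9 genes described here encode secreted or membrane-bound antagonists of Wnt signalling and the Kremen receptors that act with one of them: DKK1, DKK3, KREMEN1, KREMEN2, SFRP1, FRZB, NOTUM, APCDD1 and SOSTDC1. They were chosen by name, each matched to 1 row, from 54644 rows of a gene-level RNA-seq table. The cells were SKBR3, an established HER2-positive human breast adenocarcinoma line, carrying a stably integrated lentivirus and selected with puromycin. The control group (n = 3 libraries) held the empty pLVX vector, and the CTTN group (n = 3 libraries) held pLVX with the cDNA of CTTN, which encodes the actin-binding protein cortactin. The libraries of a group are labelled as biological replicates of a single cell line, and no source used here says that they came from separate infections, so the p-values measure the spread between these libraries. The sources do not name the promoter that drives the CTTN cDNA, whose reads count to the CTTN gene. Polyadenylated RNA was taken from 400 ng of total RNA per library. The comparison asks how the transcripts of these antagonists and receptors differ when cortactin is overexpressed. Of the 9 genes, 4 (DKK1, KREMEN1, KREMEN2 and NOTUM) passed the filter on low counts and were tested, and the other 5 were too low to judge.

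Wnt ligands carry a lipid that docks into Frizzled receptors, and together with the co-receptors LRP5 and LRP6 they stop the destruction of β-catenin, which then acts with TCF/LEF factors on target genes. Secreted antagonists act at the cell surface. DKK1 occupies LRP5 and LRP6, and Kremen receptors bind DKK1 and can remove the complex from the membrane, whereas SFRP1 and FRZB bind the ligand itself and NOTUM cleaves off its lipid. DKK1, NOTUM and APCDD1 are also known as transcriptional targets of the pathway, so their RNA is often read as feedback.

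The CTTN transcript was higher in every CTTN library. Its estimated counts were 29088, 37144 and 18999 in CTTN libraries 1 to 3, against 10912, 11228 and 11265 in the controls, a log2 fold change of 1.35 ± 0.22 (SE, adjusted p = 0.025, edgeR quasi-likelihood test). The CTTN libraries also differed more among themselves than the controls did: correlations of log2 CPM (counts scaled by library total) were 0.976 to 0.991 within the CTTN group 0.995 to 0.996 within the control group and 0.968 to 0.991 between the groups. CTTN 2 correlated more closely with each control (0.990 to 0.991) than with CTTN 3 (0.976). Depth was alike, at 34887181 to 41279835 fragments assigned to genes per library. In FPKM, CTTN 3 stood apart, with values summing to 852256 against 603634 to 704018 in the other libraries. Of 14433 genes tested, 606 (4.2%) passed an adjusted p of 0.05, with 331 (2.29%) higher and 275 (1.91%) lower in CTTN cells. These totals rest on single libraries: without CTTN library 2 they were 3394 higher and 3559 lower, without CTTN library 3 they were 662 and 582, and without CTTN library 1 they were 11 and 7. Without any 1 control they were 10 to 17 higher and 5 to 13 lower. The CTTN call itself was lost without CTTN 1 (adjusted p = 0.123) and without control 1, 2 or 3 (0.138, 0.154 and 0.142).

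DKK1, the antagonist that blocks the Wnt co-receptors, is encoded at chr10:52314281-52317657 (GRCh38.p14, plus strand; row XLOC_005390). Its RNA had lower counts in all 3 CTTN libraries, but the difference did not pass the adjusted threshold. The region upstream of its start site is shown because DKK1 is the 1 tested member of the 9 with lower counts in every CTTN library and a known β-catenin target. The 250 bases before the RefSeq start (chr10:52314031-52314280, plus strand, written 5′ to 3′) hold the core of the TCF/LEF site, CTTTGA, at 2 places, in capitals. The first, read on the minus strand, begins 149 bases before the start, and the second, on the plus strand, begins 95 bases before it.
DKK1 promoter: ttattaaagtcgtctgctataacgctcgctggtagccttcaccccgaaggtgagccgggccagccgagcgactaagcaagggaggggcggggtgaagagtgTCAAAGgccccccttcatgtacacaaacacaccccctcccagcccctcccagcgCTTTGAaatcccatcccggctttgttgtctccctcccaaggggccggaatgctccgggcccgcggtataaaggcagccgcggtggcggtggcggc

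The same letters, searched on both strands, occurred in 11.2% of 35116 RefSeq promoter windows of 250 bases, and the AP-1 motif TGANTCA, found in 6.57% of them, was not in the DKK1 window. Windows were at hand for 3 of the 9 genes, and neither FRZB nor APCDD1 held either motif. A match describes letters only and says nothing of binding in these cells.

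DKK1 was counted at 40, 64 and 63 fragments in control libraries 1 to 3 and at 35, 26 and 37 in CTTN libraries 1 to 3. The counts of the groups did not overlap, although control 1 lay closer to the CTTN libraries than to the other controls. Counts without overlap were common, at 38.6% of all genes tested. The mean fell from 55.7 ± 13.4 (SD, n = 3) to 32.7 ± 5.54 (SD, n = 3), a log2 fold change of -0.77 ± 0.26 (SE), that is 1.7-fold lower in CTTN cells, with a 95% interval from -1.37 to -0.16. The unadjusted p was 0.0196 and the adjusted p over all genes was 0.117 by the edgeR quasi-likelihood test, so DKK1 was not called. In RNA from whole cultures, fewer expressing cells and less RNA per cell cannot be told apart. An unadjusted p under 0.05 was reached by 30.2% of the genes tested, and 16.7% of them had a lower p than DKK1. The log2 fold change itself was low in the distribution, at percentile 3.43 of all genes.

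In FPKM, which divides by transcript length, the groups overlapped for DKK1. The values were 0.82, 1.61 and 1.8 FPKM in the controls and 1.03, 0.761 and 0.671 FPKM in the CTTN libraries, so CTTN 1 lay above control 1. An exact two-sided permutation test over the 6 libraries gave p = 0.2 for this FPKM difference, and 0.1 for the counts, the smallest p that 3 against 3 libraries allow. The division of fragments between transcripts differed between CTTN 1 and control 1. The full-length transcript ENST00000373970 (1790 bases) took 87.1% of the DKK1 count in CTTN 1 and 92% in control 1, and in CTTN 1 the remaining 12.9% went to a short 465-base transcript that adds 0.431 FPKM. Other short transcripts added 0.278 FPKM in CTTN 2, 0.341 and 0.0877 FPKM in control 2 and 0.0775 and 0.587 FPKM in control 3, and were at about 0 in control 1 and CTTN 3. For the full-length transcript alone the levels were 0.765, 1.18 and 1.14 FPKM in the controls and 0.601, 0.483 and 0.67 FPKM in the CTTN libraries, without overlap, as for 18.8% of all transcripts tested. That transcript was not called either (log2 fold change -0.72, adjusted p = 0.767 by edgeR).

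**Figure D1:**
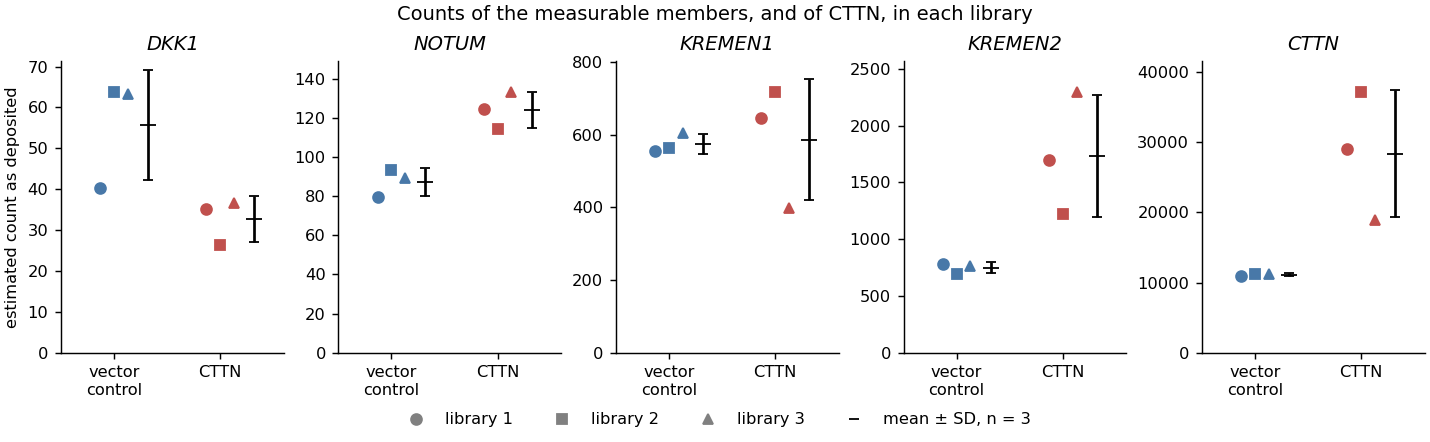
Estimated counts per library (vertical axis, starting at 0 in each panel) of DKK1, NOTUM, KREMEN1, KREMEN2 and CTTN in vector control (blue) and CTTN (red) SKBR3 cells; marker shapes give the library number and black bars the mean ± SD of 3 libraries. DKK1 counts run from 26 to 37 in CTTN cells and from 40 to 64 in controls, NOTUM and KREMEN2 lie above the controls in all CTTN libraries, and KREMEN1 spreads on both sides of them.

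KREMEN2, a receptor for DKK1, was the member that rose. It lies at chr16:2964275-2968380 (GRCh38.p14), and its row XLOC_018316 spans 2963944-2980539, past the end of the gene. The row carries no other gene name, and the share of fragments from beyond the gene was not tested. It was counted at 785, 696 and 764 fragments in the controls against 1693, 1219 and 2292 in the CTTN libraries. Every CTTN library was above every control, and the lowest, CTTN 2, stood well below the highest, CTTN 3. The mean went from 749 ± 46.4 (SD, n = 3) to 1735 ± 537 (SD, n = 3), a log2 fold change of 1.21 ± 0.22 (SE, 95% interval 0.7 to 1.73) or 2.32-fold, with an adjusted p of 0.0317 by the edgeR quasi-likelihood test. Per length the levels were 14.9, 13.4 and 13.8 FPKM in the controls and 34.2, 20.8 and 49.4 FPKM in the CTTN libraries, also without overlap, which holds for 32.4% of genes tested. The order of KREMEN2 among the CTTN libraries was the reverse of the order of CTTN itself: KREMEN2 was highest in library 3, where the CTTN count was lowest, and lowest in library 2, where the CTTN count was highest. CTTN 2 is also the library of its group nearest to the controls over all genes, and CTTN 3 the farthest, and the share of this spread in the KREMEN2 difference was not tested.

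The call for KREMEN2 was lost without CTTN 1 or any 1 control, while its direction held. Without CTTN 1 the adjusted p was 0.138, and without control 1, 2 or 3 it was 0.144, 0.184 and 0.153. Without CTTN 3 the call held at 0.96 on the log2 scale, and without CTTN 2 it held at 1.41, in a fit that called 47.2% of all genes. On log2(FPKM + 1) with limma the difference was 1.17 ± 0.28 (SE) and missed the threshold (adjusted p = 0.0998).

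KREMEN2 had 6 transcripts in 3 start-site groups, of which 5 were tested and 1, ENST00000575885, was at about 0 in every library. The transcript ENST00000572045 (2339 bases) took the largest share, 44.8% of the mean control count and 33.9% of the mean CTTN count. It was estimated at 333, 268 and 405 fragments in the controls and at 595, 490 and 681 in the CTTN libraries. ENST00000319500 (1882 bases) was estimated at 127, 136 and 150 fragments in the controls and at 460, 246 and 577 in the CTTN libraries, a log2 difference of 1.62, and its share of the mean count was 18.4% in controls and 24.6% in CTTN cells. Neither share was tested. Of the 5, 4 transcripts had higher counts in every CTTN library than in every control, and counts without overlap in either direction were found for 19.3% of all transcripts tested. The exception was ENST00000575769, estimated at 27.4 in control 1, 72.7 in CTTN 1 and 143 in CTTN 3 and at about 0 in the other libraries. By start-site group, the major group TSS44552 held 642, 547 and 704 fragments in the controls and 1415, 927 and 1805 in the CTTN libraries (log2 fold change 1.14, unadjusted p = 0.00552, adjusted p = 0.419, edgeR). Of all start-site groups tested, 23.3% had counts without overlap.

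No transcript or start-site group in the whole tables passed an adjusted p of 0.05 in edgeR, which is 0% of 58275 transcripts and 0% of 35916 start-site groups tested. Limma on log2(FPKM + 1) also called 0 of each. At an unadjusted p under 0.05, 6.24% of transcripts and 10.4% of start-site groups passed. Among the rows of the members, 4 of 8 tested transcripts and 2 of 6 tested start-site groups did so, all of them KREMEN2. Fragments shared by several transcripts are divided by estimation, and these tables were not precise enough to assign the KREMEN2 difference to 1 transcript.

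**Figure D2:**
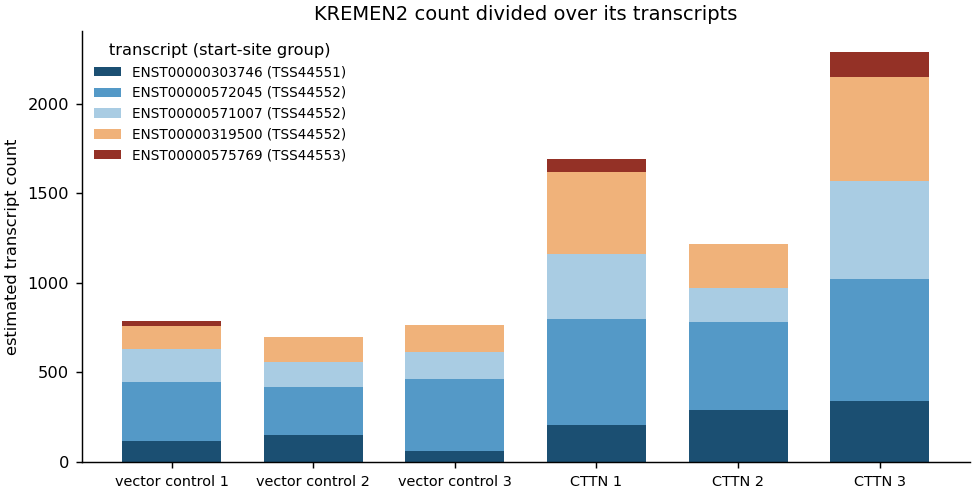
Estimated counts (vertical axis) of the 5 KREMEN2 transcripts with counts, stacked for each of 3 vector control and 3 CTTN libraries; the legend gives each transcript with its start-site group. The stacks reach 696 to 785 in controls and 1219 to 2292 in CTTN libraries, and the segments of group TSS44552 (mid blue, pale blue and orange) make up most of each.

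KREMEN1, the other Kremen receptor, showed no detectable difference between the group means. It lies at chr22:29073035-29168333 (GRCh38.p14; row XLOC_033157). Control libraries held 554, 563 and 605 fragments, and CTTN libraries held 645, 716 and 398. CTTN 1 and CTTN 2 were above all controls and CTTN 3 was below all of them, so the groups overlapped. Per length the controls stood at 2.83, 3.61 and 3.05 FPKM and the CTTN libraries at 2.98, 4.07 and 1.88 FPKM. The log2 fold change of the counts was 0.03 ± 0.2 (SE, adjusted p = 0.927, edgeR quasi-likelihood test), with a 95% interval from -0.45 to 0.51 that leaves room for a moderate change in either direction. The sign followed single libraries: 0.24 without CTTN 3, and -0.14 without CTTN 2. In CTTN 3 the pair of Kremen receptors stood apart in opposite directions, since that library had the lowest KREMEN1 and the highest KREMEN2 of all 6. ENST00000400335 (6138 bases) carried 96.6% of the mean KREMEN1 count in controls and 96% in CTTN cells.

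NOTUM, the secreted carboxylesterase that removes the lipid of Wnt ligands, had higher counts in CTTN cells, short of the adjusted threshold. It lies at chr17:81952507-81961187 (GRCh38.p14; row XLOC_023184). The controls held 79, 93 and 89 fragments and the CTTN libraries 124, 114 and 133, with no overlap, as for 38.6% of all genes tested. The coefficient of variation of the NOTUM count was 7.54% in CTTN cells, against 16.9% to 31% for the other 3 tested members, and 8.18% in controls, where KREMEN1 (4.69%) and KREMEN2 (6.2%) were more even. The log2 fold change was 0.51 ± 0.14 (SE, 95% interval 0.18 to 0.83), or 1.42-fold, with an unadjusted p of 0.00775 and an adjusted p of 0.0829 by the edgeR quasi-likelihood test. Without CTTN 2 the adjusted p was 0.018 and the log2 fold change 0.56, in the fit that called 47.2% of all genes, and without each of the other 5 libraries the adjusted p was 0.107 to 0.259. Per length the groups did not overlap either, as for 32.4% of genes, but by a narrow margin: control 2 stood at 1.776 FPKM and CTTN 2 at 1.781 FPKM. The full-length transcript ENST00000409678 took 89.4% of the mean count in controls and 91.6% in CTTN cells.

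**Figure D3:**
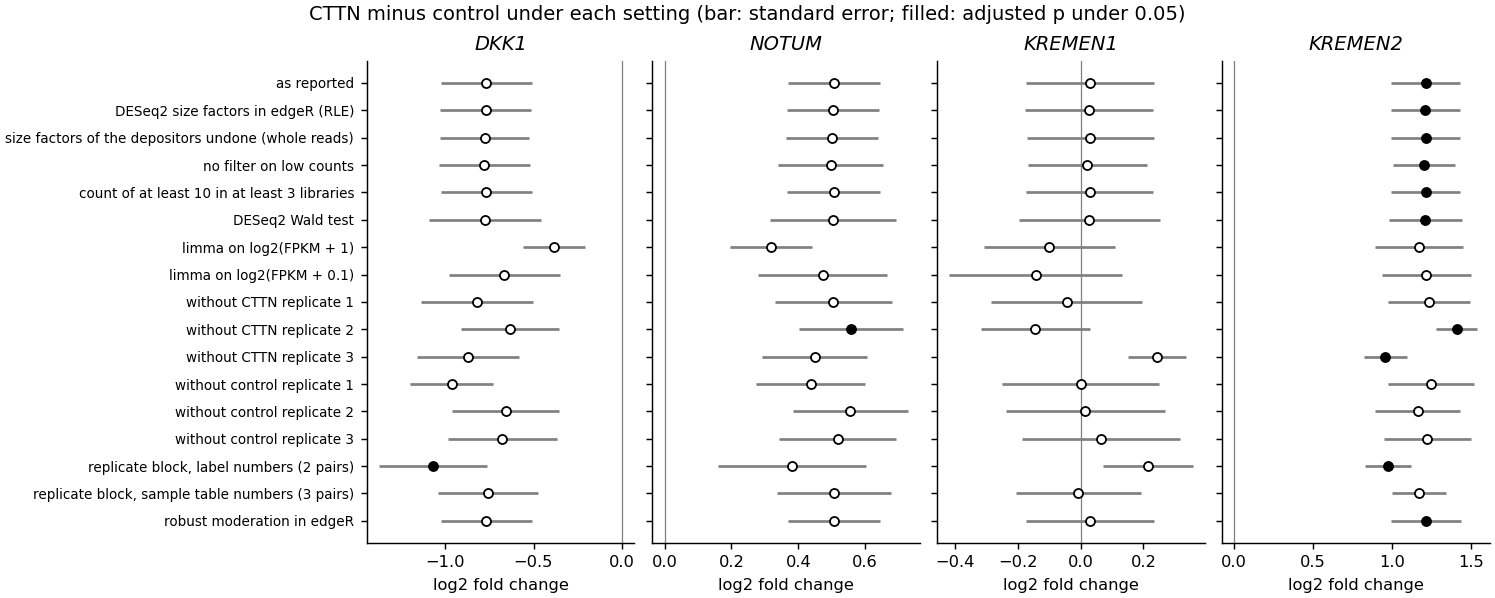
Log2 fold change, CTTN minus control (horizontal axis, its own range in each panel), of DKK1, NOTUM, KREMEN1 and KREMEN2 under each processing setting (rows); bars are standard errors and filled points have an adjusted p under 0.05. DKK1 stays below 0 and NOTUM and KREMEN2 above 0 in all settings drawn, KREMEN1 falls on both sides of 0, and the filled points are a minority except for KREMEN2.

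The 5 remaining members were at or near 0 in SKBR3 cells. SFRP1, a secreted decoy for Wnt ligands (chr8:41261962-41309473), had no fragment in any of the 6 libraries. DKK3, a divergent Dickkopf protein (chr11:11963036-12009745), had 1 fragment in control 3 and 0 in the other 5 libraries. SOSTDC1, which binds LRP6 and BMP ligands (chr7:16461481-16465738), had 2 fragments in CTTN 1 and 0 elsewhere. A count of 0 allows up to 3 fragments, which is 0.0727 to 0.086 CPM at these depths and covers counting error only.

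FRZB, a second ligand-binding decoy (chr2:182833275-182866637), had 3, 0 and 0 fragments in the controls and 4, 1 and 4 in the CTTN libraries. APCDD1, a membrane glycoprotein that binds Wnt ligands and LRP5 (chr18:10454635-10489949), had 0, 1 and 3 fragments in the controls and 3, 3 and 0 in the CTTN libraries. Both overlapped between the groups. With the filter lifted, none of the 4 low members with a fragment passed in edgeR: adjusted p was 0.807 for APCDD1, 0.549 for DKK3, 0.512 for FRZB and 0.495 for SOSTDC1, and none had an unadjusted p under 0.05. A difference in these 5 genes was not detectable at this depth.

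**Figure D4:**
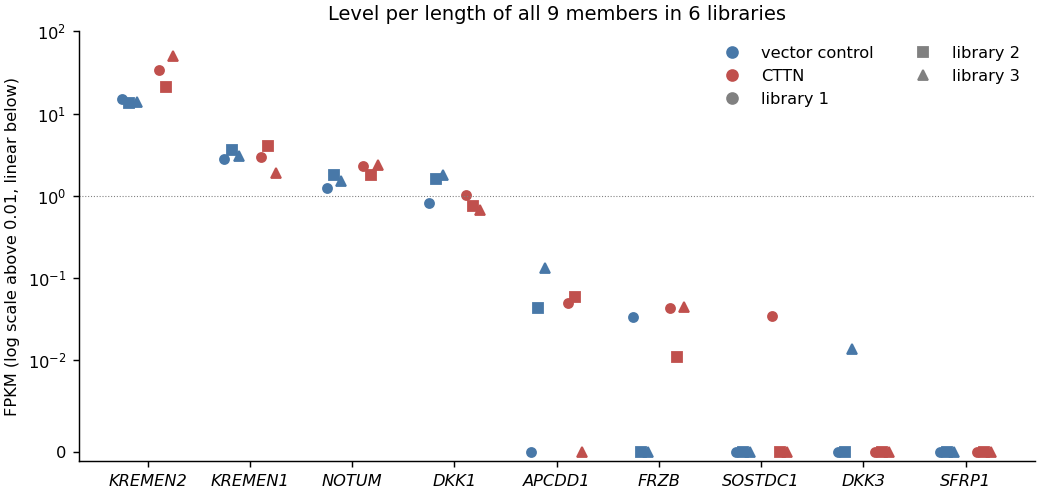
FPKM (vertical axis, logarithmic above 0.01 and linear below) of all 9 members in 3 vector control (blue) and 3 CTTN (red) libraries, with marker shapes for the library number and a dotted line at 1 FPKM. KREMEN2 is highest, at 13.4 to 49.4 FPKM. KREMEN1, NOTUM and DKK1 lie between 0.671 and 4.07 FPKM, and DKK1 falls on both sides of the dotted line. The other 5 do not exceed 0.132 FPKM.

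Compared per length, KREMEN2 was the most abundant member in both groups, with a mean of 14.1 ± 0.79 FPKM (SD, n = 3) in controls, at percentile 61 of the genes tested, and 34.8 ± 14.3 FPKM (SD, n = 3) in CTTN cells, at percentile 79.1. KREMEN1 came next in the controls at 3.16 ± 0.404 FPKM (SD, n = 3). NOTUM and DKK1 followed at 1.52 ± 0.26 and 1.41 ± 0.521 FPKM (SD, n = 3 each), and these 2 ranges overlapped. In CTTN cells the order was the same, but now KREMEN1 (1.88 to 4.07 FPKM) overlapped with NOTUM (1.78 to 2.35 FPKM), whereas NOTUM lay wholly above DKK1 (0.671 to 1.03 FPKM). The measurable antagonists were thus of low abundance beside KREMEN2: mean DKK1 stood at percentile 23.1 of tested genes in controls and 16.2 in CTTN cells.

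In 6 lists of other Wnt pathway genes, edgeR called 1 of 51 genes tested, against 4.2% of all genes, and 15 had an unadjusted p under 0.05, against 30.2% of all genes. DESeq2 called 7 of the 51, against 14.6% of all genes it adjusted, and limma on log2(FPKM + 1) called 0, against 1.28%. The lists are described by counts and medians, beside a median log2 fold change of 0.01 for all genes tested. Of 14 other secreted or surface antagonists, among them WIF1, DKK2, DKK4, SFRP2 and SOST, 12 were too low to test. The 2 tested were the Wnt-cleaving proteases TRABD2A (log2 fold change -0.21, adjusted p = 0.601, edgeR) and TRABD2B (-0.71, adjusted p = 0.146), and the TRABD2B row also carries a second gene name. By edgeR 0 of these 2 were called, 1 at an unadjusted p under 0.05, and 0 by DESeq2 or limma.

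Of 17 Wnt receptors and co-receptors, 13 were tested and edgeR called 0, with 4 at an unadjusted p under 0.05 (30.2% of all genes), 4 called by DESeq2 (14.6% of all genes) and 0 by limma. The list median was -0.15. The 4 DESeq2 calls were Frizzled receptors, with FZD2 and FZD9 higher (0.49 and 0.79) and FZD4 and FZD6 lower (-0.62 and -0.53). LRP6, the co-receptor that DKK1 occupies, was counted at 1179, 1280 and 1273 fragments in controls and at 826, 1278 and 613 in CTTN libraries. CTTN 1 and CTTN 3 lay below every control and CTTN 2 lay among them, and the log2 fold change of -0.46 ± 0.24 (SE) was not called (adjusted p = 0.223, edgeR), and without CTTN 3 it was -0.24 with an adjusted p of 0.336. Without CTTN 2 it was -0.8 with an adjusted p of 0.0027, in the fit that called 47.2% of all genes, and without each of the other 4 libraries the adjusted p was 0.337 to 0.432. LRP5 held 4939, 4964 and 5597 fragments in controls and 4700, 5929 and 3557 in CTTN libraries, overlapping, with a log2 fold change of -0.13 ± 0.18 (SE, adjusted p = 0.613). In FPKM the LRP5 difference had the opposite sign, 0.23 on log2(FPKM + 1) (adjusted p = 0.286, limma). There the groups did not overlap, as for 32.4% of genes tested, at 33.8, 31.2 and 34.2 FPKM in controls and 35, 35.2 and 47.3 FPKM in CTTN libraries.

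Of 19 Wnt ligands, 8 were tested and WNT6 was the 1 called by edgeR, which called 4.2% of all genes. It had 12, 6 and 5 fragments in controls and 52, 32 and 96 in CTTN libraries, all higher, a log2 fold change of 2.95 ± 0.54 (SE, adjusted p = 0.0326). Like KREMEN2 it was highest in CTTN 3 and lowest in CTTN 2 within its group. Its adjusted p was 0.123 without CTTN 1 and 0.106, 0.184 and 0.162 without control 1, 2 or 3. With limma it missed the threshold, at 1.13 on log2(FPKM + 1) (adjusted p = 0.107) and 2.45 on log2(FPKM + 0.1) (adjusted p = 0.0725), and limma called 0 ligands. The list median was -0.2, and DESeq2 also called WNT5A and WNT9A, both lower (-0.52 and -0.47).

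EdgeR calls were absent from the remaining lists. Among 13 surface regulators such as RNF43, ZNRF3 and the R-spondin receptor LGR4, 6 were tested with a median of 0.17, of which 1 passed an unadjusted p of 0.05. Of 12 known Wnt target genes, including AXIN2, NKD1, MYC and CCND1, 8 were tested with a median of -0.16 and 2 passed an unadjusted p of 0.05. AXIN2, a widely used readout of β-catenin activity, gave -0.37 ± 0.32 (SE, adjusted p = 0.424, edgeR), on a row it shares with CEP112 and AC004805.1, whose fragments cannot be told apart from its own. Of 15 core components, 14 were tested with a median of -0.02, and 4 passed an unadjusted p of 0.05. The rows of APC, GSK3A, CSNK1A1, DVL1 and PYGO2, and of the surface regulator RNF43, also carry other gene names. Over all genes tested, 30.2% passed that threshold. In these 3 lists edgeR, DESeq2 and limma each called 0 genes.

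**Figure D5:**
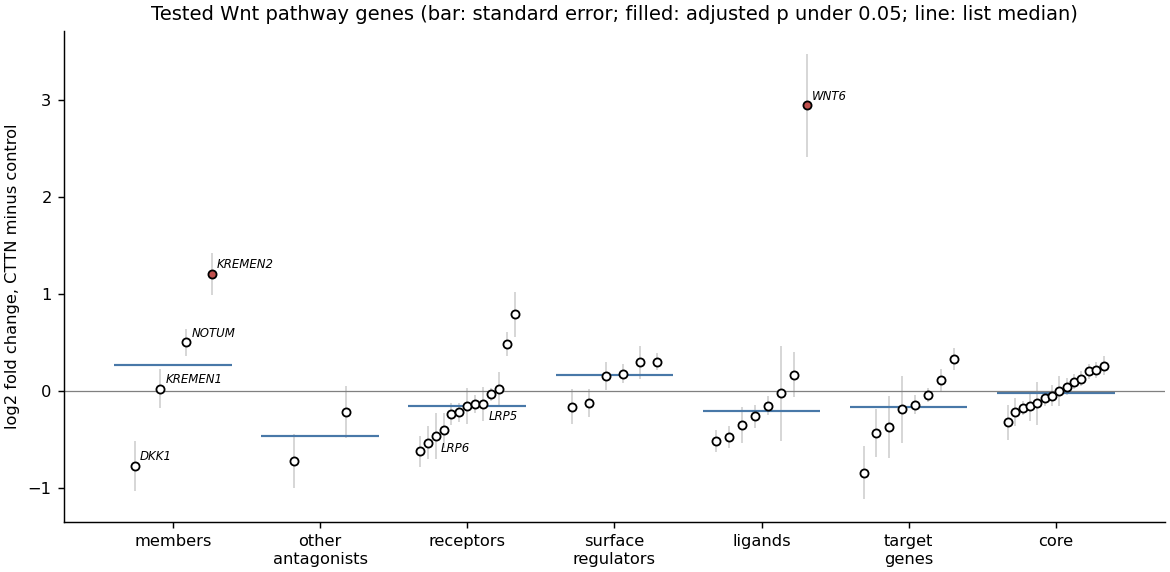
Log2 fold change, CTTN minus control (vertical axis), of each tested gene in the members and 6 Wnt pathway lists (horizontal axis); bars are standard errors, filled points have an adjusted p under 0.05 and blue lines are list medians. KREMEN2 at 1.21 and WNT6 at 2.95 are the filled points, and DKK1 at -0.77 is the lowest of the 4 tested members.

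The genes whose level followed that of DKK1 most closely were listed by Pearson correlation of log2(FPKM + 1) over the 6 libraries, among 11746 other genes with a mean of at least 1 FPKM. The 5 highest were DOK3 (r = 0.979), PACS1 (0.975), ZBTB46 (0.974), ECD (0.973) and FARSB (0.97). DOK3 ran at 1.63, 2.12 and 2.17 FPKM in controls and 1.63, 1.48 and 1.35 FPKM in CTTN libraries. Control 1 was level with CTTN 1 for DOK3, whereas for DKK1 it was lower (0.82 against 1.03 FPKM). The 5 most opposite were RBM11 (r = -0.985), AC106782.2 (-0.974), AL358472.2 (-0.972), SALL2 (-0.971) and RSG1 (-0.969). The 6 points share their libraries and group labels, and the correlations are given as a description.

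The libraries carried the markers of the labelled cells. Of 11 markers of a HER2-amplified luminal line, 9 exceeded 1 FPKM in every library, ERBB2 at 1644 to 1790 FPKM among them. The others were CDH1, at up to 0.244 FPKM, and TFAP2B, at 0.297 to 1.05 FPKM, while ESR1 and PGR did not exceed 0.398 FPKM. TFAP2B was called higher in CTTN cells, with means of 0.446 FPKM in controls and 0.965 FPKM in CTTN cells (adjusted p = 0.0265, edgeR). Of 9 mesenchymal markers, 8 were under 1 FPKM in every library, ZEB1 at 0, and the list summed to 4.04 to 5.24 FPKM in controls and 3.65 to 5.05 FPKM in CTTN cells. Of 4 immune markers, PTPRC did not exceed 0.199 FPKM, CD68 was at 605 to 855 FPKM, and the list summed to 606 to 633 FPKM in controls and 620 to 858 FPKM in CTTN cells. Of 3 endothelial markers, 2 were under 1 FPKM throughout, with PECAM1 at up to 0.022 FPKM and CDH5 at 1.43 to 4.45 FPKM. The list summed to 4.12 to 4.62 FPKM in controls and 1.56 to 2.17 FPKM in CTTN cells. Most of this sum was CDH5, which was called lower, with means of 4.15 FPKM in controls and 1.68 FPKM in CTTN cells (adjusted p = 0.00845, edgeR). Mean PECAM1 was 0.0105 and 0.0146 FPKM, and mean VWF 0.153 and 0.116 FPKM. Of 4 basal markers, 3 were under 1 FPKM throughout, and the sum was 2.03 to 2.31 FPKM in controls and 2.69 to 3.44 FPKM in CTTN cells. The share of either of these 2 lists in the KREMEN2, NOTUM or DKK1 differences was not tested.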

How the data were processed

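Libraries were prepared with a stranded poly(A) kit and sequenced as paired ends by a service provider. The methods of the study give adapter trimming, STAR alignment and Cufflinks quantification, and the labels add bcl2fastq 2.20.0 and Trimmomatic. The methods name hg19 and the labels GRCh38; positions in the deposited tables are GRCh38, so RefSeq positions and promoters of GRCh38.p14 were used. The deposited estimated counts were Cufflinks fragment counts divided by 1 size factor per library (0.902 to 1.15, read from the lowest step of each column, and 100% of values under 100 were then whole within 0.01). The deposited FPKM values were scaled by the authors for transcript length and library depth. The labels give the 3 controls column names shifted by 1 from the deposited sample table; both sources place all 3 in the control group, and controls are numbered here as in that table.

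Estimated counts were rounded, filtered with filterByExpr, scaled by TMM and tested with the quasi-likelihood test of edgeR 4.0.16 in R 4.3.3, on group only, with Benjamini-Hochberg adjustment over all features tested at 0.05. Standard errors were derived from the fold change and its F statistic. Transcripts and start-site groups were fitted alike. DESeq2 1.42.0 and limma 3.58.1 served as alternatives. The edgeR and limma fits were tested on simulated data. Intervals cover the spread between libraries. No row lacked a gene name. The members and lists were chosen with earlier results of these data known. Genes were named by rule: all members, CTTN, LRP5, LRP6, every called gene of a list, and the 5 genes most and least correlated with DKK1; other names, including the DESeq2 calls and AXIN2, were picked after their values were seen.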

Additional observations from a re-analysis of the deposited data

How the results depend on the processing

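DKK1 kept a negative and NOTUM and KREMEN2 a positive log2 fold change under all 16 alternatives, and their calls did not change under other size factors, undone scaling, other filters, DESeq2 or robust moderation (the last was added after seeing the data). With limma, KREMEN2 missed the threshold at 1.17 on log2(FPKM + 1) and 1.22 on log2(FPKM + 0.1), and KREMEN1 reversed to -0.10 and -0.14. DKK1 was -0.39 (adjusted p = 0.224) and -0.67 (adjusted p = 0.231) on these scales, and NOTUM was 0.32 (adjusted p = 0.198) and 0.47 (adjusted p = 0.207). With single libraries left out, log2 fold changes ran from -0.96 to -0.63 for DKK1, from 0.96 to 1.41 for KREMEN2, from 0.44 to 0.56 for NOTUM and from -0.14 to 0.24 for KREMEN1, which reversed to -0.04 without CTTN 1. LRP5 reversed to 0.23 with either FPKM scale, and ran from -0.33 without CTTN 2 to 0.038 without CTTN 3. Genes called ran from 10 to 3394 higher and from 5 to 3559 lower across these fits. Called genes numbered 1071 higher and 1000 lower by DESeq2, 106 and 79 by limma on log2(FPKM + 1), 107 and 73 on log2(FPKM + 0.1), and 962 and 681 at an unadjusted p of 0.05 with a fold of 1.5. The cause of these shifts was not tested, beyond fewer libraries in some fits.

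Replicate numbers marked no shared origin in the labels. Correlations of log2 CPM after subtraction of the group mean were 0.0285, 0.0791 and -0.19 for libraries with the same sample table number. For the same label number they were -0.0223 and 0.202. With 3 and 2 pairs, these values cannot tell whether same-numbered libraries shared an origin. With the label numbers as a replicate block over 2 pairs, the fit left out CTTN 3 and control 1, which had no partner. In that fit 710 genes were higher and 883 lower, and DKK1 passed at -1.07 (adjusted p = 0.0084, edgeR). It changed both the block and the libraries used, and the share of each was not tested. Without a block, DKK1 was -0.96 without control 1 and -0.87 without CTTN 3, and was not called in either fit. With the sample table numbers as a block over 3 pairs, added after seeing the data, 54 were higher and 55 lower, KREMEN2 missed the threshold at 1.17 (adjusted p = 0.0538), KREMEN1 reversed to -0.0079, and CTTN (1.3, adjusted p = 0.0563) and WNT6 (2.88, adjusted p = 0.0651) also missed it. DKK1, NOTUM, LRP5 and LRP6 stayed uncalled there. CTTN libraries varied widely and DKK1 rests on 26 to 64 fragments a library, which limits the precision of its difference.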
